A study of Mus musculus with 12 samples.

Results

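The 10 genes described here are regulators and markers of the epithelial-mesenchymal transition (EMT), namely Snai1, Snai2, Twist1, Zeb1, Zeb2, Prrx1, Cdh1, Epcam, Cdh2 and Vim. They were chosen by name and looked up in the copy-number segments of a pair of primary mouse pancreatic ductal adenocarcinoma (PDAC) lines, 15376T and 14837T, where all 10 were found among 20947 autosomal genes that lie in 1 segment in each line. Genomic DNA of each line was enriched for exons and sequenced (whole-exome sequencing, WES) as 1 library, named WES-15376T or WES-14837T in the plots, so no value below has a replicate. Both lines came from C57BL/6 mice that carried tetO_LKrasG12D, ROSA_rtTA, p48-Cre and Trp53 L/+, where the p48 promoter limits Cre to the pancreatic lineage, and the labels give the genotype of both as WT. The age of the mice was not given, and the cells were grown in DMEM with serum and, per the methods of the study, doxycycline, which switches on the tetO transgene. The capture probes were designed for human exons. The RNA libraries and the tail DNA of the series were not analysed here, so nothing below speaks of expression.

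EMT is the process in which epithelial cells lose their contacts with each other and take on the shape and motility of mesenchymal cells. It is driven by transcription factors of the Snail, Twist, Zeb and Prrx families, several of which bind a short DNA motif called the E-box and repress epithelial genes. E-cadherin, encoded by Cdh1, and Epcam mark the epithelial state, whereas N-cadherin, encoded by Cdh2, and vimentin, encoded by Vim, mark the mesenchymal state. In pancreatic tumors, EMT is known for its links to spread and to resistance to treatment.

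The value of a gene is the log2 ratio of read coverage to a copy-number reference over the segment that holds the gene. A segment is a stretch of neighboring bins with a common coverage, and each carries an integer copy number called by the authors. Fewer than 2 copies are written as lost and more than 2 as gained. Among autosomal segments at 2 copies, log2 had an SD of 0.090 in 15376T (103 segments) and 0.095 in 14837T (96 segments), and it serves here as the spread. The bin-weighted mean depth of those segments was 46.0 and 47.5. The SD is a spread between segments within a line, not the error of a segment or of a difference between the lines. The lines could not be tested against each other, because neither was replicated.

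Snai2 was called at 1 copy in both lines. Zeb1 and Cdh2 were called at 1 copy in 15376T and at 2 copies in 14837T, and Epcam was called at 2 copies in 15376T and at 3 copies in 14837T. The remaining 6 genes, Snai1, Twist1, Zeb2, Prrx1, Cdh1 and Vim, were called at 2 copies in both lines. In 15376T, 3 of the 10 genes were lost and 0 gained, against 30.1% lost and 9.09% gained among all 20947 genes. In 14837T, 1 was lost and 1 gained, against 28.8% lost and 21.4% gained. The call differed between the lines for 3 of 10 genes, against 29.3% of all genes. It was lost in both lines for 1 of 10, against 22.4%, and at 2 copies in both for 6 of 10, against 41.4%. The shares of 10 genes rest on few genes, which lie in 9 segments in each line and are not all independent, and no test was made of them. The median log2 of the 10 genes was -0.023 in 15376T and -0.043 in 14837T, where the medians of all genes were -0.023 and -0.045.

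**Figure D1:**
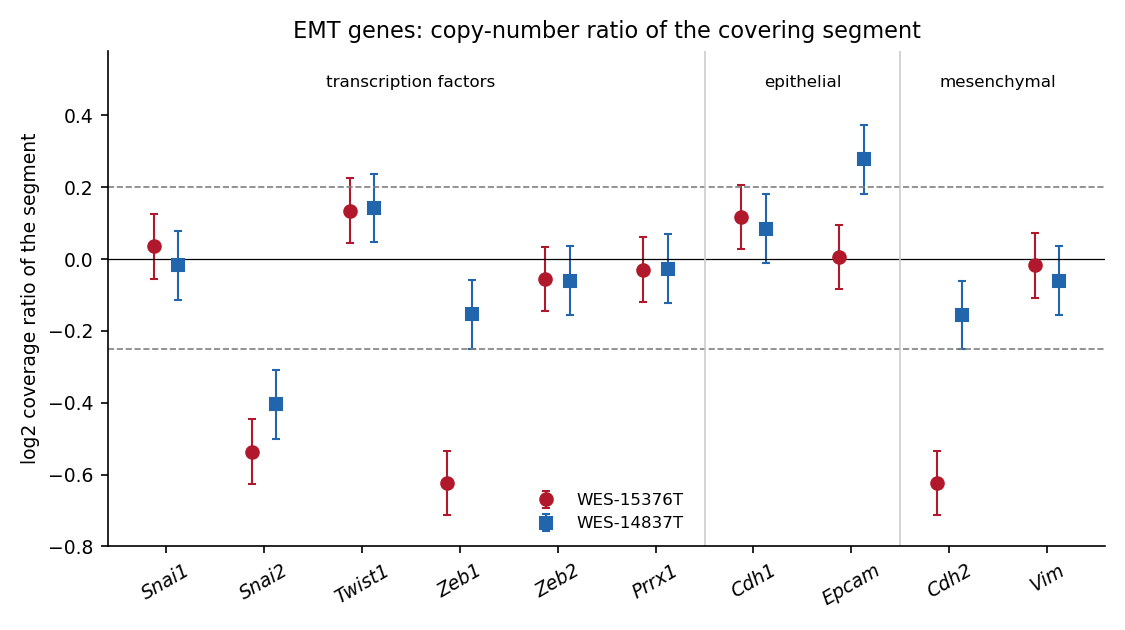
Segment log2 ratio (vertical axis) of the 10 EMT genes (horizontal axis) in 15376T (circles) and 14837T (squares), with 1 library per line. Bars show the SD of log2 among segments called at 2 copies in that line and dashed lines the thresholds of -0.25 and 0.2. Snai2 lies under the lower line in both, Zeb1 and Cdh2 only in 15376T at -0.62, and Epcam lies over the upper line only in 14837T at 0.28.

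Snai2, which encodes Slug, a repressor of epithelial genes, was the only member lost in both lines. The gene spans 14705852 to 14709395 on chromosome 16 (GRCm38). Its segment, from 3592388 to 24292907, had the same borders and the same 2574 bins in both lines and held 259 genes. The segment log2 was -0.54 in 15376T and -0.40 in 14837T, and the next segment along the chromosome was also lost in both lines, with a log2 of -0.65 and -0.49. The gene therefore lay within a loss that ran on past its own segment. The difference of -0.13 between the lines was at the 50.4th percentile of the absolute differences of all genes. The BAF of the segment, the B-allele frequency at variant positions, was 0.27 in 15376T and 0.072 in 14837T.

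Snai2 was also the only member with a read depth of its own in both lines, because the gene tables list genes only from an absolute log2 of 0.40. Its own depth over 3 bins was 19.6 in 15376T and 34.2 in 14837T. These values were 0.60 and 0.90 of the mean depth of the segment, 32.8 and 37.9. With each depth set against that of segments called at 2 copies, the log2 ratio of the lines was -0.76 for Snai2, whereas the median of the 259 listed genes of the segment was -0.17 (SD 0.24). Of these genes, 5 had a lower ratio than Snai2. The depth of Snai2 thus differed between the lines by more than most of its neighbors did. The adjacent genes A630010A05Rik, with 3 bins, and Efcab1, with 6 bins, had ratios of -0.16 and -0.30. Genes with few bins varied more, with an SD of 0.34 among the 21 genes of the segment with 3 bins, of which 1 lay lower than Snai2. The segment log2 gives Snai2 the value of all 2574 bins and does not show this difference, and the number of reads behind the 3 bins is not known.

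**Figure D2:**
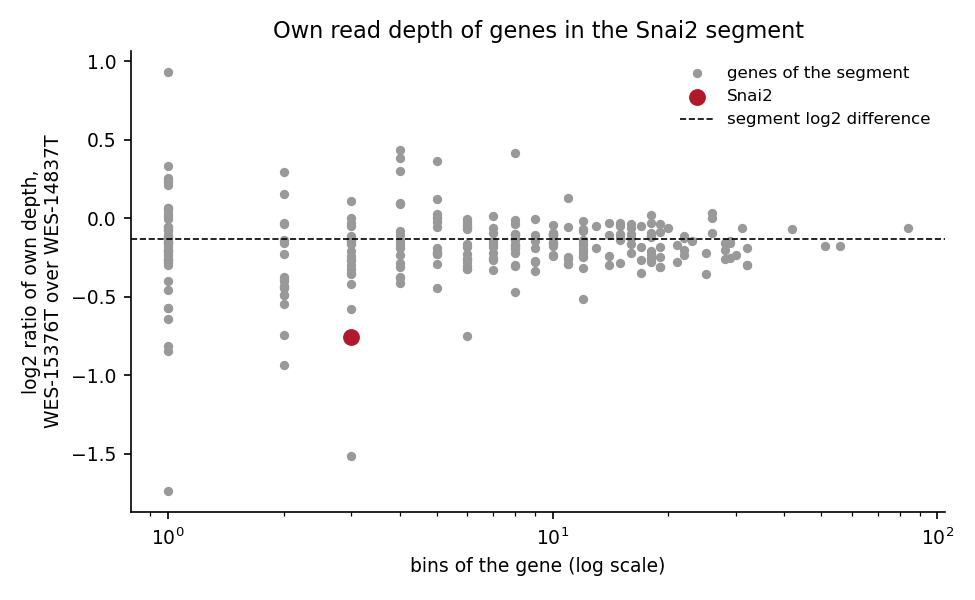
Log2 ratio of own read depth, 15376T over 14837T (vertical axis), against the number of bins (horizontal axis, log scale) for the 259 genes of the chromosome 16 segment. Each point is 1 gene and the dashed line is the segment log2 difference of -0.13. Snai2, the large point at 3 bins, lies at -0.76, and genes with few bins spread more widely.

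Zeb1, which encodes a zinc-finger repressor of Cdh1, differed most between the lines, together with Cdh2. It lies on chromosome 18 from 5591327 to 5775468. Its segment log2 was -0.62 in 15376T, called at 1 copy, and -0.15 in 14837T, called at 2 copies. The difference of -0.47 lay at the 91.4th percentile of the absolute differences of all genes. In 15376T the gene shared an unbroken segment of 28.3 Mb and 1498 bins with Cdh2, from 3267540 to 31609870, followed by a segment that was also lost (log2 -0.46). Farther along, at 35118902, both lines were lost, with a log2 of -0.46 in 15376T and -0.32 in 14837T. In 14837T the stretch as far as 31444277, with 1488 bins, was split into 5 segments, all called at 2 copies. The segments that held Zeb1 and Cdh2 had a log2 of -0.15 and -0.16, and the last one -0.13, while the shorter ones between them had a log2 of 0.093 and 0.12. The shorter ones had more bins per Mb, 77.5 and 185, against 54.1, 52.6 and 38.8 in the longer ones. The part of bin density in these steps was not tested.

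The read depth of the stretch, which comes from the same reads as the log2, also differed between the lines. It was 29.8 in 15376T and, as a mean over the bins of the 5 segments, 45.2 in 14837T. Relative to segments at 2 copies, the log2 ratio of the lines was -0.55. Those segments were called from log2, so this ratio is not separate from the log2 difference. The own depth of Zeb1 in 15376T was 26.2 over 11 bins, where the median of the 104 genes listed in the segment was 34.4 and 20 genes were lower. 14837T lists no own depth for Zeb1, since its segment lies nearer to 0 than 0.40.

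Cdh2, which encodes N-cadherin, lies 10.8 Mb beyond Zeb1, from 16588877 to 16809246 on the same chromosome. Its log2 was -0.62 in 15376T, as for Zeb1, and -0.16 in 14837T, a difference of -0.47. The value in 15376T is not a separate observation, because both genes take it from 1 segment. The own depth of Cdh2 in 15376T was 24.9 over 19 bins, and 16 of the 104 genes of the segment were lower. A repressor of the epithelial state and a marker of the mesenchymal state were thus called at 1 copy together in 15376T and at 2 copies together in 14837T.

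Zeb2, the paralog of Zeb1, was called at 2 copies in both lines. It lies on chromosome 2 from 44983512 to 45117442, with a log2 of -0.055 in 15376T and -0.060 in 14837T. The borders of its segment were not the same. In 15376T the gene lay 0.841 Mb beyond a lost segment (log2 -0.38, 43.7 bins per Mb), while in 14837T the nearest border was 32.8 Mb away. The mean log2 within 5 Mb of Zeb2 was accordingly -0.17 in 15376T and -0.060 in 14837T. Fap, a fibroblast marker of the wider list described further on, shared both of its segments.

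Snai1, which encodes Snail, the paralog of Slug, was at 2 copies in both lines, with a log2 of 0.035 in 15376T and -0.018 in 14837T. It lies on chromosome 2 from 167538195 to 167542814, and shared both of its segments with Mmp9, a matrix metalloproteinase. Snail and Slug thus lay in regions of different copy number within each line. Twist1, a basic helix-loop-helix factor on chromosome 12 from 33957671 to 33959831, had the highest log2 of the members in 15376T, 0.13, and a log2 of 0.14 in 14837T. Both values stayed under the threshold of 0.2, but the segments on either side of it were gained in both lines. The segment before had a log2 of 0.21 and 0.20, and the segment after 0.53 and 0.31. Prrx1, a homeobox factor on chromosome 1 from 163245119 to 163315145, had the smallest difference of the members, with a log2 of -0.029 in 15376T and -0.027 in 14837T. The absolute difference of these 4 genes with Zeb2 included ranged up to 0.053, which is less than the SD of segments at 2 copies in either line.

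Epcam, which encodes an epithelial cell adhesion molecule, was the only member gained in either line. It lies on chromosome 17 from 87635979 to 87651127. Its segment log2 was 0.0056 in 15376T and 0.28 in 14837T, a difference of -0.27 that lay at the 75.7th percentile of the absolute differences of all genes. The segment had nearly the same extent in both lines, from 69487870 to 88984621 in 15376T (1595 bins) and from 69385413 to 88584036 in 14837T (1576 bins). Its read depth was 48.6 and 61.4, which relative to segments at 2 copies gave a log2 ratio of -0.29 between the lines. The segment log2 rests on the same reads, so this depth ratio is not a separate observation of the step. Epcam lay 1.33 Mb from the end of the segment in 15376T and 0.933 Mb from it in 14837T. The next segment was lost in 15376T (log2 -0.38, 27.9 bins per Mb) and at 2 copies in 14837T (log2 0.081, 19.8 bins per Mb). The segments of Epcam had 81.8 and 82.1 bins per Mb, and the part of bin density was not tested. The lost segment of 15376T ended 3.07 Mb past the gene start. From there to 7.20 Mb both lines were at 2 copies, with a log2 of 0.0098 in 15376T and 0.081 in 14837T. The gain is a small one, since with calls at an absolute log2 of 0.3 Epcam would not be called gained, and within 5 Mb of the gene the mean log2 was 0.198, just under the threshold.

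The promoter of Epcam is shown because Epcam is the member that was gained and because its promoter holds the motif of the repressors above. It was read from RefSeq on GRCm38.p6 at chr17:87635729-87636028 on the plus strand, and runs from 250 bases before the gene start to 50 bases after it. Capitals mark the E-box CACCTG or its reverse complement CAGGTG.
Epcam promoter: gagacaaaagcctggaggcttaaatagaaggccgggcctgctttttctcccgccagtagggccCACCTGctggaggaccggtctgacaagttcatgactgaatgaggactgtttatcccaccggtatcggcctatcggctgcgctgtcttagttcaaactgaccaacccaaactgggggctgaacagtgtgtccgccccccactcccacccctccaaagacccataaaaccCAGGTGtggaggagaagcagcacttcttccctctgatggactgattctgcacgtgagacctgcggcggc
The first of the marked motifs begins 187 bases before the gene start and the second 19 bases before it. Other forms of the E-box were not marked. Of the 6 members with a promoter in the RefSeq table, Epcam had 2 such motifs, Snai1 had 1 that begins 126 bases before its start, and Twist1, Zeb2, Prrx1 and Vim had 0. Among all 32851 promoter windows of 300 bases, 20.2% held at least 1 of the motifs and 2.88% at least 2. Epcam was shown for holding the motif, so its count beside these shares is a description and not a test. Snai2, Zeb1, Cdh1 and Cdh2 had no promoter among these windows and could not be compared. The motif is a match of letters, and binding was not measured.

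Cdh1, which encodes E-cadherin, was called at 2 copies in both lines. It lies on chromosome 8 from 106603350 to 106670247, next to Cdh3 and Tango6. Its segment log2 was 0.12 in 15376T and 0.085 in 14837T, a difference of 0.033 that is less than the SD of segments at 2 copies. The segment ran from 104250966 to 111869792 in 15376T and from 104530354 to 111710337 in 14837T. It was rich in bins, with 205 and 204 per Mb, against 87.8 per Mb over the autosomes. The segment after it had a log2 of -0.19 with 45.3 bins per Mb in 15376T and of -0.17 with 53.8 bins per Mb in 14837T. Both of these segments had fewer bins per Mb than that of Cdh1. Before it, 15376T had a segment with a log2 of -0.14 and 29.4 bins per Mb, whereas 14837T had a short one with a log2 of 0.0072 and 265 bins per Mb, preceded by a segment at -0.26 that was called at 1 copy. That segment ran from -10.6 to -2.35 Mb relative to the start of Cdh1 and had only 113 bins. The part of bin density in the steps around Cdh1 was not tested. Cdh3, which encodes P-cadherin, and Esrp2, a splicing factor of epithelial cells, shared both segments with Cdh1.

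Vim, on chromosome 2 from 13574311 to 13582826, had a log2 of -0.017 in 15376T and -0.060 in 14837T and was at 2 copies in both. In 14837T it shared a segment of 74.8 Mb with Zeb2, whereas in 15376T a lost segment lay between them. The shared segment of 14837T ended, 64.3 Mb past Vim, at one called at 25 copies with a log2 of 3.62. The BAF of the segments of Vim and Zeb2 was 0.30 and 0.32 in 15376T, called by the authors as 1 copy of each allele, and 0.19 for both in 14837T. In 14837T both genes were called as 2 copies of 1 allele. The same call was given to Snai1, Twist1, Prrx1 and Cdh1 in both lines, to Epcam in 15376T, and to Zeb1 and Cdh2 in 14837T. In each line the BAF values of Vim and Zeb2 were the highest among the members. Apart from Snai2 in 15376T, the BAF of the other members lay between 0.029 and 0.099, where the autosomal medians were 0.077 and 0.061. The number of variants behind a BAF is not known.

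**Figure D3:**
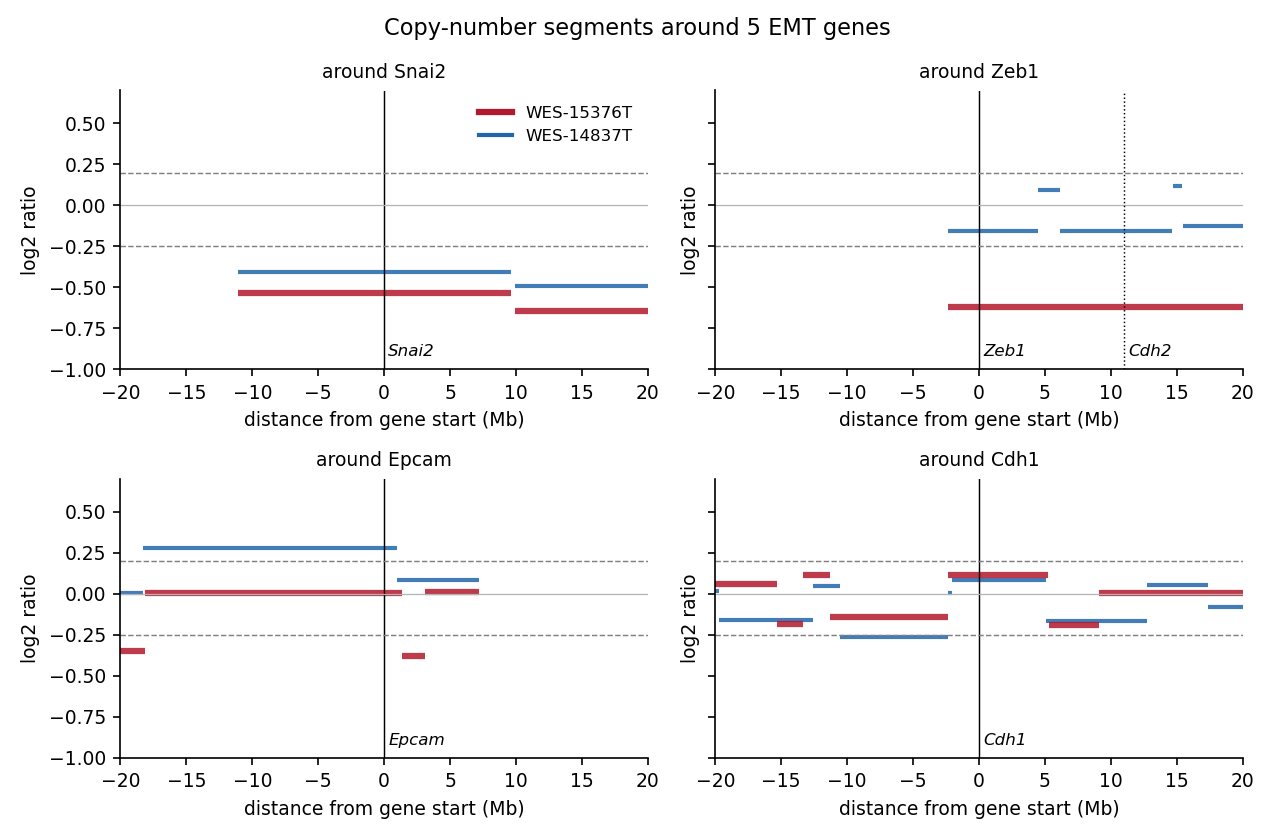
Segment log2 ratio (vertical axis) within 20 Mb of the start of Snai2, Zeb1, Epcam and Cdh1 (horizontal axis, distance in Mb) in 15376T (thick lines) and 14837T (thin lines), with Cdh2 marked by a dotted line beside Zeb1. Dashed lines are the thresholds of -0.25 and 0.2. The lines lie close together over the segments of Snai2 and Cdh1 themselves and apart over those of Zeb1 (-0.62 against -0.15) and Epcam (0.0056 against 0.28), and before Cdh1 14837T is at -0.26, called at 1 copy, where 15376T is at -0.14, called at 2 copies.

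Since the tables give a gene the value of its segment, many genes have the same pattern as a member. The number of genes that shared both segments, the member included, was 450 for Vim, 259 for Snai2, 252 for Prrx1, 147 for Cdh1, 135 for Zeb2, 115 for Epcam, 114 for Snai1, 85 for Twist1, 29 for Zeb1 and 25 for Cdh2. Zeb1 and Cdh2 had the fewest, with Gm10125 and Arhgap12 as the neighbors of Zeb1 and Chst9 and Dsc3 as those of Cdh2. The values above thus describe regions, and a change within a single gene was not detectable from the segment log2.

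**Figure D4:**
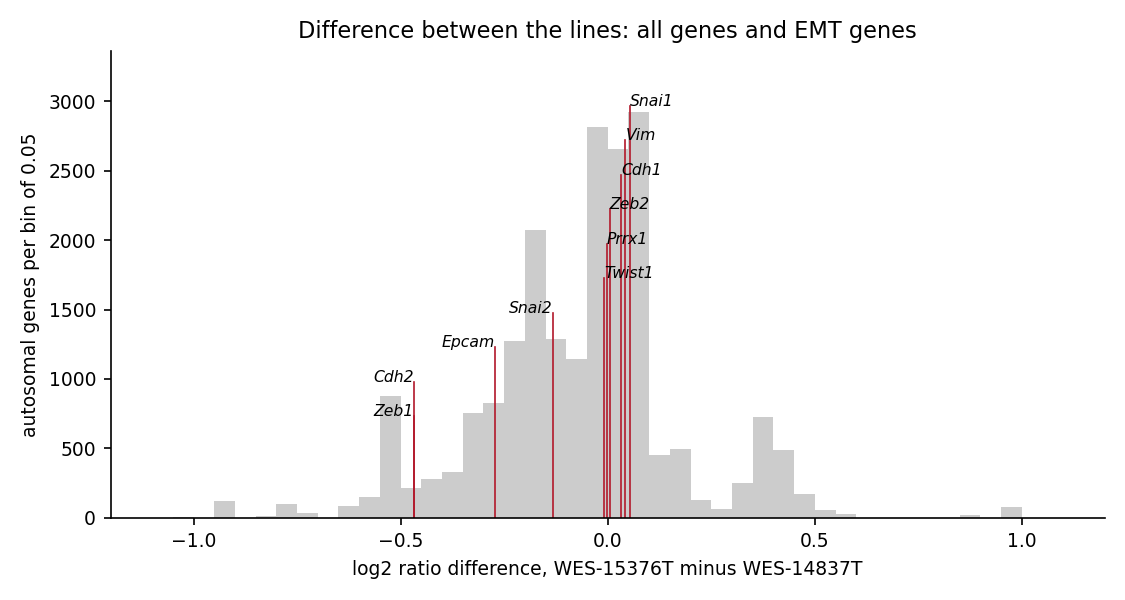
Number of autosomal genes (vertical axis) by log2 difference, 15376T minus 14837T, in bins of 0.05 (horizontal axis), with the 10 EMT genes marked by vertical lines whose height has no meaning. Zeb1 and Cdh2 lie at -0.47, Epcam at -0.27 and Snai2 at -0.13, and the other 6 within 0.053 of 0.

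The wider list held 52 other genes of EMT in 4 roles, of which 50 were autosomal and named in the segment tables. In 15376T, 12 of the 50 were lost (24%) and 2 gained (4%), against 30.1% and 9.09% of all genes. In 14837T, 16 were lost (32%) and 7 gained (14%), against 28.8% and 21.4%. The call differed between the lines for 15 of the 50, close to the 29.3% of all genes, and 10 of the 50 were lost in both lines, against 22.4%. Their median log2 was -0.023 in 15376T and -0.048 in 14837T.

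Among 10 other transcription factors, 1 was lost in 15376T and 4 in 14837T, against 30.1% and 28.8% of all genes, and 0 were gained, against 9.09% and 21.4%. Tcf4, an E-protein, was lost in both, with a log2 of -0.56 and -0.44. The forkhead genes Foxc1 and Foxq1 had a log2 of -0.036 in 15376T and -0.47, the lowest of the list, in 14837T, in a segment that also held the desmosome gene Dsp. Tcf3, which encodes E-proteins, had a log2 of 0.010 and -0.38. The call thus differed for 3 of these 10 genes, which is near the 29.3% of all genes, and Foxc1 and Foxq1 take their value from 1 segment.

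Among 14 genes of epithelial junctions and keratins, 3 were lost in 15376T and 4 in 14837T, against 30.1% and 28.8% of all genes. The 2 that were gained were gained in 14837T, against 21.4% of all genes there, and these shares are near or below the background. Ctnnb1, which encodes β-catenin, the partner of E-cadherin, had the lowest log2 of the list in 15376T, -0.59, and -0.075 in 14837T. Ocln, which encodes the tight junction protein occludin, went the other way, with 0.081 and -0.38. Krt8 and Krt18, the keratin pair of simple epithelia, lie in 1 segment, at 0.0086 in 15376T and 0.33 in 14837T. Itga5, an integrin gene of the mesenchymal markers, lay in the same gained segment of 14837T, so the gain was not particular to keratins.

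Among 13 mesenchymal markers, 2 were lost in 15376T and 3 in 14837T, against 30.1% and 28.8% of all genes. The 3 that were gained, S100a4, Acta2 and Itga5, were gained in 14837T, near the 21.4% of all genes there. S100a4, a calcium-binding protein of motile cells, had the highest log2 of the list in 14837T, 0.62, and 0.097 in 15376T. Acta2, which encodes smooth muscle actin, had a log2 of -0.030 and 0.36. Itga5 had a log2 of 0.0092 and 0.33, the latter from the segment that held Krt8 and Krt18, so 3 of the 7 gains of the wider list in 14837T came from 1 segment.

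**Figure D5:**
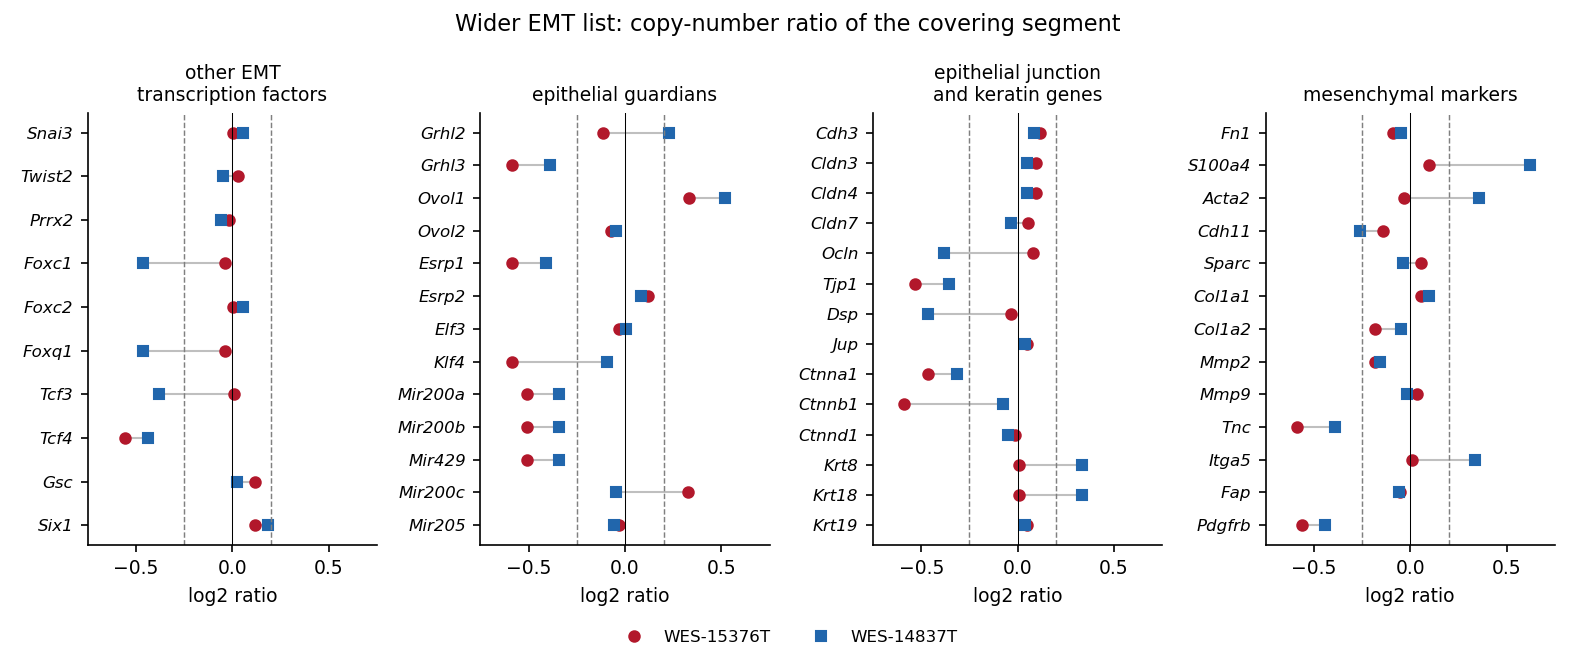
Segment log2 ratio (horizontal axis) of the 50 counted genes of the wider EMT list (vertical axis), in 4 panels by role, for 15376T (circles) and 14837T (squares). A grey line joins the values of a gene, and dashed lines are the thresholds of -0.25 and 0.2. S100a4 and Ctnnb1 are among the genes with the longest grey lines, and Mir200a, Mir200b and Mir429 lie under the lower line in both.

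Among 13 genes maintaining the epithelial state, 6 were lost in 15376T (46.2%) and 5 in 14837T (38.5%), against 30.1% and 28.8% of all genes. In each line 2 were gained (15.4%), against 9.09% and 21.4%. The 6 losses of 15376T all lay on chromosome 4, in 2 segments, 1 with Grhl3, Esrp1 and Klf4 and 1 with Mir200a, Mir200b and Mir429, so they are not separate events. The 5 losses of 14837T, Grhl3, Esrp1, Mir200a, Mir200b and Mir429, lay on chromosome 4 too, with the microRNAs in 1 segment. Those losses are not all separate either. Klf4, a transcription factor of epithelia, was lost in 15376T alone, with a log2 of -0.59 against -0.091. Ovol1, a repressor of Zeb1, was gained in both lines, with a log2 of 0.33 (the highest of the list in 15376T) and 0.52, and Grhl2 in 14837T alone, with -0.11 and 0.23. The microRNAs of the miR-200 family, which repress Zeb1 and Zeb2, lie in a pair of clusters that were not at the same copy number. Mir200a, Mir200b and Mir429 on chromosome 4 had a log2 of -0.51 in 15376T and -0.34 in 14837T, lost in both. Mir200c on chromosome 6 had a log2 of 0.33 in 15376T, gained, and of -0.045 in 14837T, at 2 copies. Their mature 3p strands, from RefSeq on GRCm38.p6, are shown because the clusters share their seeds. Capitals mark the seed, bases 2 to 8.
mmu-miR-429-3p: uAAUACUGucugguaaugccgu
mmu-miR-200a-3p: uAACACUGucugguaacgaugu
mmu-miR-200b-3p: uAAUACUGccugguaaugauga
mmu-miR-141-3p: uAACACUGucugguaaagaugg
mmu-miR-200c-3p: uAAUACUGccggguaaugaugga
The seed AAUACUG of miR-200b and miR-429 from the lost cluster is also that of miR-200c, and the seed AACACUG of miR-200a is also that of miR-141. Levels of the microRNAs were not measured in these libraries.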

How the data were processed

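WES of the lines 15376T and 14837T gave 1 library per line, and the authors deposited a table of segments and a table of genes for each. Each deposited log2 value is a ratio of coverage to a reference that the sources used here do not name. The BAF deposited by the authors is a fraction. The depth column that the authors deposited is raw coverage signal, and a score column, the weight that the authors deposited, was not used. The copy numbers are those the authors deposited, and on autosomes they followed log2 thresholds of -0.25 and 0.2 with 0 exceptions in either line. The aligner, caller and filters are not given in the sources used here. The build is mm10 per the submitters' processing notes, and RefSeq positions on GRCm38.p6 were used. Depth averaged 43.4 in 15376T and 47.5 in 14837T over autosomal bins. The number of reads per bin is unknown, so no interval could be set.

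Genes were found by name in the gene column of the segments, and 196 names that lie in several segments were left out of the background. Starts were written counting from 1. Own depths were set against the bin-weighted mean depth of segments at 2 copies. Analyses used Python 3.11.15, numpy 2.4.6, pandas 2.3.3 and matplotlib 3.10.9, and were tested on simulated segments. The alternatives were thresholds of 0.3 or 0.5 on absolute log2, recentring on the autosomal median, the mean within 5 Mb, the log2 of the gene table, position instead of name, and own depth. The genes and lists were chosen with earlier results of these data known. Of the wider list, the text names the genes whose call differed most, 12 of them with a tie at the last, those with the highest and lowest log2, those that share both segments with a member and the miR-200 genes. Esrp2, Cdh3, Fap, Mmp9 and Prrx2 are of the third kind, and Tcf4, Itga5, Grhl3 and Esrp1 were named after their values were seen.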

Additional observations from a re-analysis of the deposited data

How the results depend on the processing

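Thresholds moved the counts most. The number of the 10 genes gained in 14837T was 1 as called, 0 from an absolute log2 of 0.3 and 0 from 0.5, and the number lost there was 1 as called and 0 from 0.5. Of the wider list, 2 genes were gained in 15376T as called and 0 from 0.5, 16 were lost in 14837T as called and 0 from 0.5, and 7 were gained in 14837T as called and 2 from 0.5. The construction shows why, since the losses of 14837T in these lists lie between -0.25 and -0.5. Recentring moved no count by over 1.5 times and no value by more than the SD of segments at 2 copies. Zeb2 in 15376T was -0.17 as the mean within 5 Mb and -0.055 as deposited. The difference of Snai2 between the lines was -0.76 from its own depth and -0.13 from the segment. The cause of that move was not tested. Position and the gene table gave the same segment values. Both return the log2 of the segment that holds the gene, so this is not a separate check of that log2. No paired analysis was possible because neither line was sequenced more than once. The few bins per gene, 3 for Snai2, limit what a single gene can show.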

Other observations

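Values that belong in no count above are those of 2 genes of the wider list. Mir141, which the segment tables do not name, lies by position in the segments of Mir200c, with a log2 of 0.33 in 15376T and -0.045 in 14837T. Klf8, a zinc-finger factor on chromosome X, was at -0.56 in 15376T and -0.16 in 14837T. Prrx2, the paralog of Prrx1, shared both segments with Vim. None of the 10 members and none of the 50 counted genes of the wider list had opposite calls, a gain in either line with a loss in the other, a pattern that 324 of the 20947 autosomal genes had. The pattern was rare among all genes, so its absence from lists of 10 and 50 genes says little about them.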
